A study of Mus musculus with 11 samples.

Results

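The 10 genes described here encode the enzymes that oxidize ethanol, clear the acetaldehyde it gives and activate the acetate that follows. They were chosen by gene name from the count tables of pancreas and adipose tissue, as Adh1, Adh5, Adh7, Cyp2e1, Cat, Aldh2, Aldh1b1, Aldh1a1, Aldh3a2 and Acss2. All 10 were found in both tables, among 54532 genes in the pancreas and 46078 genes in adipose tissue. No measured value entered the choice of the rule, although earlier results of these data were known when the list was written.

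Ethanol is oxidized to acetaldehyde by cytosolic alcohol dehydrogenases, by the inducible microsomal cytochrome Cyp2e1 and by peroxisomal catalase. Aldehyde dehydrogenases, above all the mitochondrial enzyme encoded by Aldh2, turn the reactive acetaldehyde into acetate, and acetyl-CoA synthetase turns acetate into acetyl-CoA. The liver carries most of this work in the body. The pancreas oxidizes ethanol far less and also joins it to fatty acids as ethyl esters, which injure acinar cells.

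The study modelled obesity-related alcohol-induced acute pancreatitis (OA-AP) in wild type C57BL/6 mice (C57BL/6J in the methods) labelled 16 weeks old. OA-AP mice received a diet with 60 kcal % fat for 12 weeks and then 2 intraperitoneal injections of ethanol at 2 g/kg, 1 h apart. Control mice received a chow diet with 10 kcal % fat for 12 weeks and saline injections, and all tissues were taken 12 h after the first injection. The series holds 11 RNA sequencing libraries, of pancreas (2 from controls, 3 from OA-AP mice) and of fat from the epididymal depot (3 from each group). Diet, ethanol and pancreatitis differed together between the groups, so their shares in any difference cannot be told apart. Neither a lean mouse given ethanol nor a mouse on the 60 kcal % fat diet given saline was among the samples. The labels name separate samples, and the p-values below measure only the spread between them. Whether a pancreas and an adipose sample came from one mouse is not given. The main tests across tissues treated all 11 libraries as independent.

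Libraries held 14188832 to 17238919 counts in the pancreas and 20825177 to 27928097 counts in adipose tissue. The tissue labels were checked against 20 acinar and 12 adipocyte marker genes. Acinar genes held 66.3% and 68.4% of the pancreas counts in the controls and 51.8%, 53.8% and 54.2% of them in OA-AP. In adipose tissue they held at most 0.00181% of the counts, except in control replicate 2 with 0.863%. Adipocyte genes held 3.83% to 5.29% of the adipose counts and at most 0.0324% of the pancreas counts. In bulk tissue, fewer cells of a type and less RNA per cell cannot be told apart.

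In the control pancreas Aldh2, of the acetaldehyde step, was the most abundant single gene, and Cyp2e1 was not detected. Levels between genes were compared as CPM, the share of a library's counts after TMM scaling within that tissue, per kilobase of the deposited gene length. Each tissue was scaled apart, so these levels compare genes within a tissue and not between tissues. The comparison of tissues below used 1 scaling of all 11 libraries. Aldh2 led with 14.8 ± 0.113 CPM per kilobase (mean ± SD, n = 2 control libraries, as for the following levels). Cat, which encodes catalase, followed with 11.5 ± 1.44 and Adh1, the classical liver alcohol dehydrogenase, with 6.19 ± 0.483. Aldh3a2, a fatty aldehyde dehydrogenase of the endoplasmic reticulum, stood at 4.53 ± 0.0542 CPM per kilobase. Aldh1a1, a cytosolic enzyme that also oxidizes retinaldehyde, stood at 3.18 ± 0.218, and Adh5, the glutathione-dependent formaldehyde dehydrogenase, at 2.42 ± 0.0573. The mitochondrial Aldh1b1 and the acetyl-CoA synthetase Acss2 were at 0.578 ± 0.0807 and 0.287 ± 0.107 CPM per kilobase. The ranges of neighbouring genes in this order did not overlap between the 2 control libraries.

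Adh7, an alcohol dehydrogenase of surface epithelia, had 0 counts in all 5 pancreas libraries. Cyp2e1 had 0 counts in both control libraries, 0 in OA-AP replicates 1 and 3, and 2 counts in OA-AP replicate 2. A count of 0 allows up to 3 counts, which is 0.157 to 0.299 CPM in the pancreas libraries and covers counting error only. Neither gene was detectable above that depth in any pancreas library, and neither was tested there.

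In control adipose tissue the order was different, and Cyp2e1 stood far above the others with 3530 ± 927 CPM per kilobase (mean ± SD, n = 3 control libraries). Cat followed with 455 ± 64.4, Aldh2 with 187 ± 19.2, Adh1 with 62.9 ± 6.69 and Aldh1a1 with 44.7 ± 3.25 CPM per kilobase. Adh5 stood at 19.4 ± 0.754, Aldh3a2 at 9.17 ± 0.475 and Acss2 at 6.52 ± 2.17 CPM per kilobase. Aldh1b1 stood at 0.495 ± 0.225 and Adh7 at 0.0721 ± 0.00765 CPM per kilobase. Neighbouring genes in this order did not overlap between the control libraries, except Aldh3a2 and Acss2. Adh7 held 2 to 10 counts in each adipose library and was not tested.

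**Figure D1:**
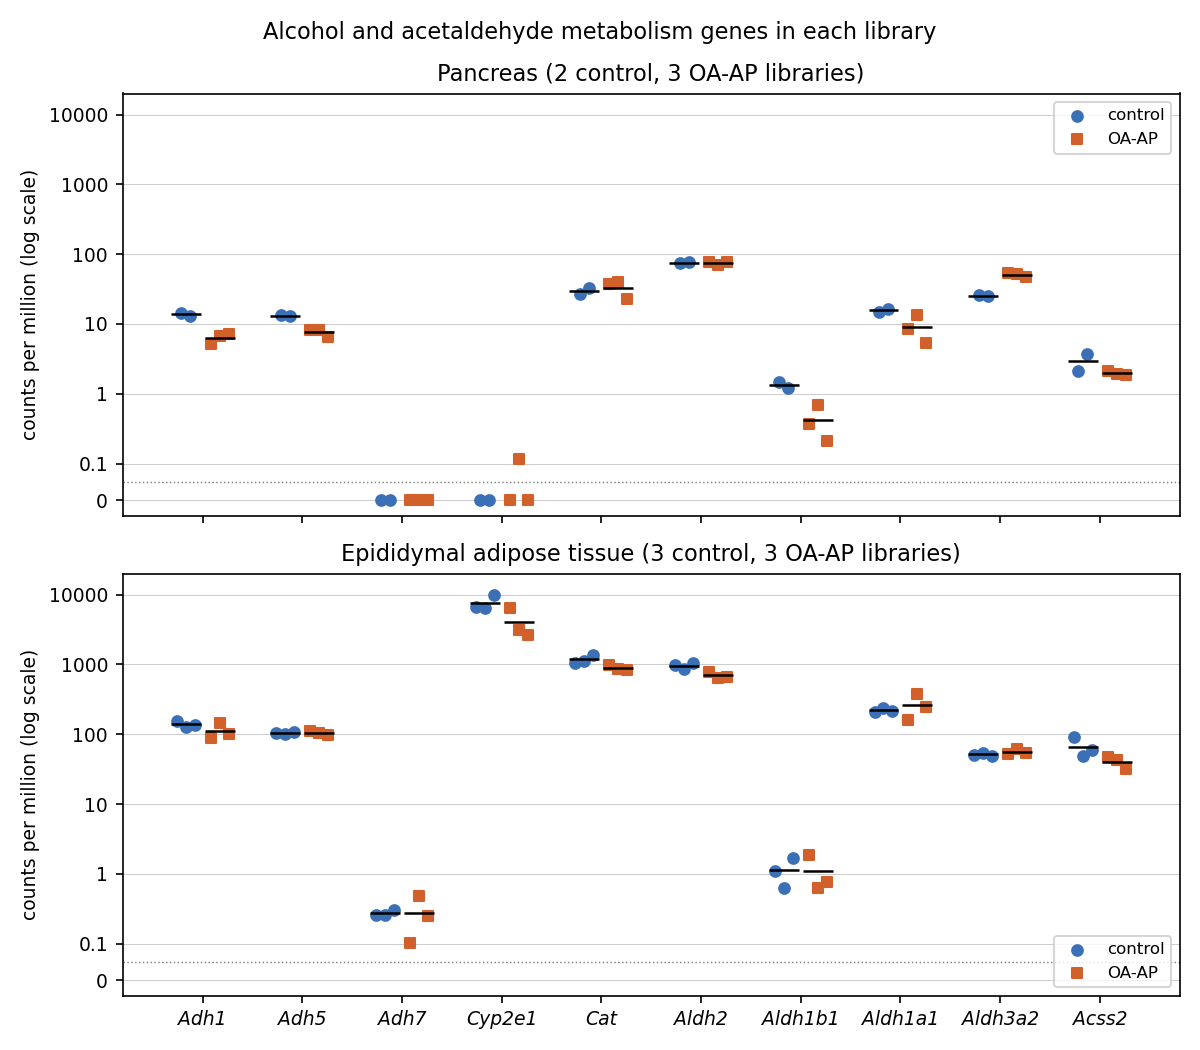
CPM of the 10 genes in each library, on a log axis with a strip for libraries at 0 below the dotted line. Each tissue was scaled apart. Circles are control libraries, squares are OA-AP libraries and black lines are group means, which are left out where a library is at 0. Cyp2e1 lies between 2683 and 9923 CPM in adipose tissue and at 0 in 4 of 5 pancreas libraries.

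The 10 genes together took 0.0126% to 0.0253% of the counts in the pancreas libraries and 0.445% to 1.36% in the adipose libraries. Cyp2e1 alone made up 57.1% to 76.8% of the counts of the 10 genes in adipose tissue. Among all adipose genes Cyp2e1 ranked 12, 9 and 8 by counts in the controls and 16, 25 and 27 in OA-AP.

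Between control adipose tissue and control pancreas, 9 of the 10 genes were tested in 1 fit of all 11 libraries and all 9 were called, 7 higher and 2 lower in adipose tissue, against 55.5% of the 17046 genes tested, 29.4% higher and 26% lower. A call was an adjusted p-value under 0.05 from edgeR's quasi-likelihood test, with Benjamini-Hochberg adjustment over all genes tested, and a fold change of at least 1.5. Cyp2e1 was at least 6543-fold higher in adipose tissue against a floor of 3 counts per pancreas library. Cat was 10.1-fold, Acss2 5.85-fold, Aldh1a1 3.58-fold, Aldh2 3.23-fold, Adh1 2.58-fold and Adh5 2.04-fold higher in adipose tissue, with adjusted p-values of edgeR's test of 0.00254 or less. Aldh1b1 was lower in adipose tissue by a log2 difference of -2.18 (SE 0.60, adjusted p = 0.00771, edgeR), and its call was lost without pancreas control replicate 1 (adjusted p = 0.0701).

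Aldh3a2 was lower in adipose tissue by a log2 difference of -0.96 (SE 0.12, adjusted p = 2.33e-05, edgeR), but higher by 1.51 when libraries were scaled by their totals alone, where Aldh1b1 also turned to 0.27. Scaling by totals moved the median of all genes by 2.46 on the log2 scale in this comparison, and the share of higher calls from 53.1% to 92.6%. The directions of these 2 genes between tissues therefore depended on the scaling, and those of the other 7 did not. The sizes of the other 7 varied. Over all alternatives the log2 difference ran from 1.01 to 3.49 for Adh5, 1.31 to 3.83 for Adh1 and 1.67 to 4.16 for Aldh2. It ran from 1.80 to 4.31 for Aldh1a1, 2.23 to 5.02 for Acss2 and 3.25 to 5.81 for Cat. For Cyp2e1 the bound was at least 38316-fold with library totals.

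In the pancreas, OA-AP mice had less Adh1 and Adh5 mRNA and more Aldh3a2 mRNA than control mice, while the level of Aldh2 was close to that of the controls with TMM scaling. With libraries scaled by their totals alone Aldh3a2 was still called, but Adh1 and Adh5 were not. Of the 10 genes 8 had enough counts to be tested, and 3 of them were called, 1 higher and 2 lower. Of all 12884 genes tested in the pancreas 29.8% were called, 16.2% higher and 13.5% lower, and the 3 calls among 8 are read against these shares. At an unadjusted p-value under 0.05 edgeR's test gave 5 of the 8, against 44.8% of all genes, and DESeq2 called 3 of the 8, against 29.7% of all genes. The groups did not overlap for 5 of the 8 genes, against 62.3% of all genes tested.

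Adh1 lies on chromosome 3 from 138260991 to 138290698 (GRCm38, plus strand), in a cluster of alcohol dehydrogenase genes. Its level was 14.6 and 13.1 CPM in the controls and 5.15, 6.64 and 7.27 CPM in OA-AP. Every OA-AP library was below both controls. Adh1 fell by 1.12 on the log2 scale (SE 0.20, adjusted p = 0.00430, edgeR's quasi-likelihood test). The group means were 13.8 ± 1.08 CPM in the controls and 6.35 ± 1.09 CPM in OA-AP (± SD, n = 2 and 3). The counts behind these levels were 170 and 131 in the controls and 98 to 139 in OA-AP. Its call was lost without control replicate 1 (adjusted p = 0.0561, edgeR) and with library totals (adjusted p = 0.134, edgeR). Adh1 shared 136 of its 2233 annotated exon bases with the antisense gene Gm16559, and the kit named in the methods does not mark strand, so reads in those bases cannot be assigned to a strand.

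Adh5 lies downstream in the same cluster, from 138443093 to 138455499 on chromosome 3 (plus strand). Its level was 13.3 and 12.9 CPM in the controls and 8.24, 8.12 and 6.59 CPM in OA-AP. The groups did not overlap, and the control libraries lay closer together than the OA-AP libraries. Adh5 fell by 0.77 on the log2 scale (SE 0.18, adjusted p = 0.0126, edgeR's quasi-likelihood test). Its call was lost with library totals (adjusted p = 0.860, edgeR) and without control replicate 1 or control replicate 2, each of which leaves 1 control. When each library was left out, its log2 change stayed between -0.84 and -0.72.

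Aldh3a2 lies on chromosome 11 from 61223417 to 61267464 (minus strand) and encodes the enzyme that is deficient in Sjögren-Larsson syndrome. Its level was 25.7 and 25.2 CPM in the controls and 53.3, 52.6 and 47.0 CPM in OA-AP. All 3 OA-AP libraries were well above both controls, which were nearly equal. Aldh3a2 rose by 1.00 on the log2 scale (SE 0.13, adjusted p = 0.00127, edgeR's quasi-likelihood test). Its call held under all 14 alternatives, with a log2 change from 0.96 to 1.72.

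**Figure D2:**
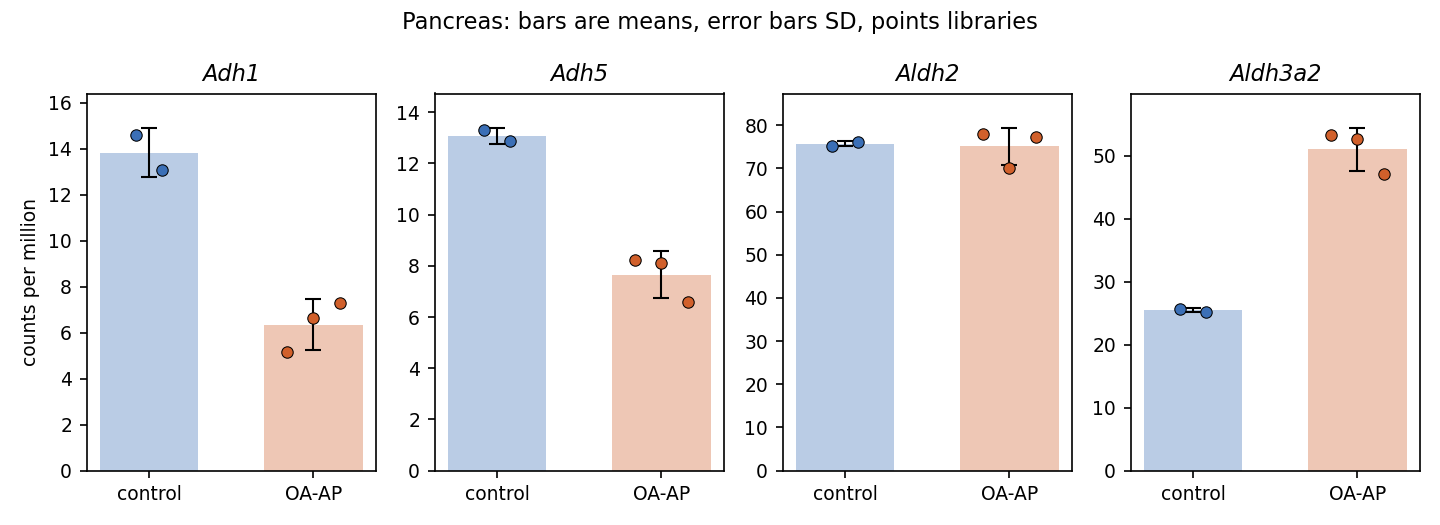
CPM of Adh1, Adh5, Aldh2 and Aldh3a2 in the pancreas, with bars for group means, error bars for SD and points for the 2 control and 3 OA-AP libraries. The OA-AP points of Adh1 and Adh5 lie below the controls, those of Aldh3a2 lie above them, and those of Aldh2 spread around them.

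Aldh2, on chromosome 5 from 121566027 to 121593824 (minus strand), was at 75.3 and 76.1 CPM in the controls and 78.0, 70.1 and 77.2 CPM in OA-AP. The OA-AP libraries lay on both sides of the controls, with a log2 change of -0.01 (SE 0.12, adjusted p = 0.956, edgeR). Cat was at 27.3 and 32.6 CPM in the controls and 36.9, 39.4 and 22.8 CPM in OA-AP. Its groups overlapped through OA-AP replicate 3, which was the lowest of all, and the log2 change was 0.14 (SE 0.24, adjusted p = 0.678, edgeR).

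Aldh1b1 and Aldh1a1 had lower CPM in every OA-AP library than in both controls but did not pass the test, and with library totals OA-AP replicate 2 no longer lay below both controls for either gene. Aldh1b1 had 17 and 12 counts in the controls and 7, 12 and 4 counts in OA-AP, and its log2 change of -1.66 had an SE of 0.58 (adjusted p = 0.0602, edgeR). At these counts the depth limits what can be seen. Aldh1a1 was at 14.9 and 16.5 CPM in the controls and 8.40, 13.3 and 5.39 CPM in OA-AP. The log2 change of Aldh1a1 was -0.80 (SE 0.34, adjusted p = 0.108, edgeR), and it was called without OA-AP replicate 2 (adjusted p = 0.00769). Aldh1a1 has a near-identical neighbour on chromosome 19, Aldh1a7, and how the counting split reads between them is not given in the sources used here.

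Acss2 was at 2.15 and 3.69 CPM in the controls and 2.15, 1.89 and 1.88 CPM in OA-AP. The groups overlapped, and the log2 change was -0.55 (SE 0.35, adjusted p = 0.257, edgeR). Acss2 shared exon bases on the opposite strand with Gss, Ggt7 and Acss2os, from 1.94% to 3.89% of its annotated exon bases each.

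The direction of several pancreas values rested on how libraries were scaled. Scaling by library totals alone moved the median of all genes by 0.71 on the log2 scale and raised the share of higher calls from 54.5% to 92%. On that scale 3 of the 8 genes tested were called, against 49.3% of all genes. Adh1 had a log2 change of -0.43 and Adh5 of -0.06, neither called. Cat at 0.88, Aldh2 at 0.70 and Aldh3a2 at 1.72 were called. A fit with the 20 acinar genes taken out of the counts left the same 3 calls, with log2 changes of -1.11 for Adh1, -0.76 for Adh5 and 1.01 for Aldh3a2. The order of the genes relative to each other within a library does not depend on the scaling. For each 100 Aldh2 counts, a reference chosen after the values were seen, there were 17.2 and 19.4 Adh1 counts in the controls and 6.60 to 9.46 in OA-AP. Adh5 went from 16.9 and 17.7 to between 8.54 and 11.6 counts, and Aldh3a2 from 33.2 and 34.1 to between 60.9 and 75.0 counts for each 100 Aldh2 counts. Since Aldh2 was level with TMM scaling, these ratios restate the changes on that scale and are no check of the scaling.

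**Figure D3:**
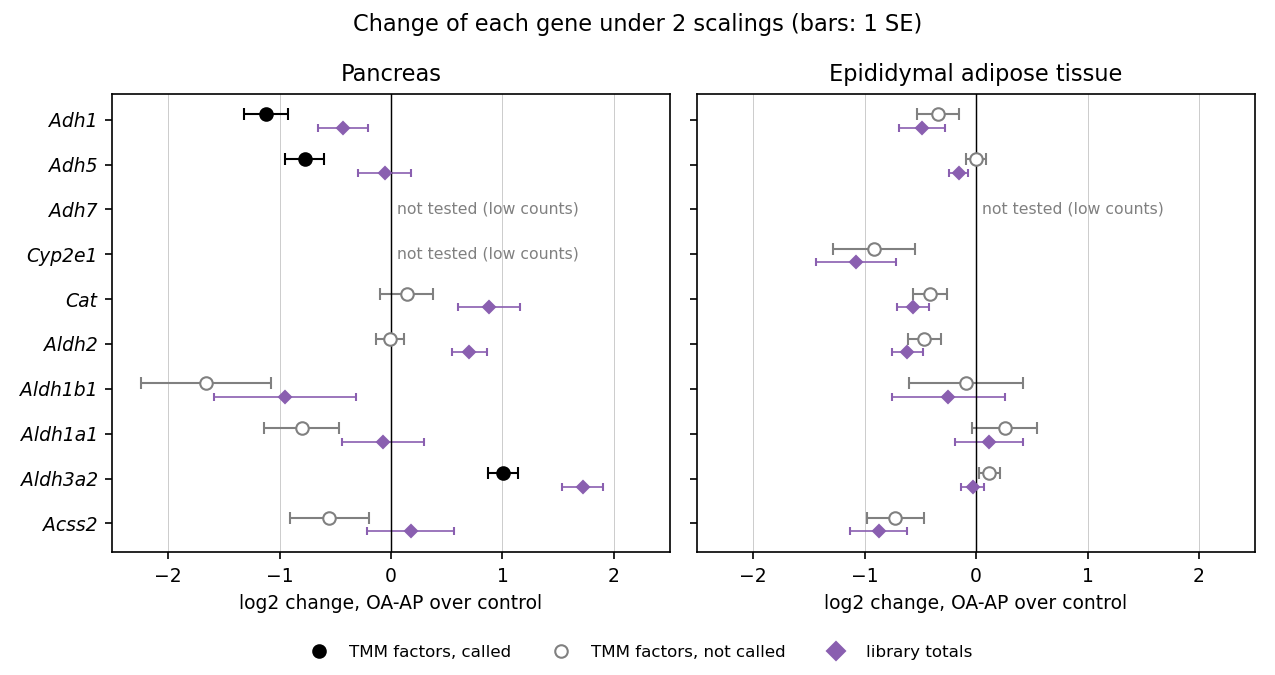
Log2 change from control to OA-AP for each gene in the pancreas and in adipose tissue, with bars of 1 SE. Circles are the values with TMM factors, filled where called, and diamonds the values with libraries scaled by totals alone, which lie 0.71 higher for the median gene in the pancreas and 0.15 lower in adipose tissue.

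Marker genes of acinar cells and some of those of adipocytes moved with the groups in the pancreas. The 20 acinar genes held 66.3% and 68.4% of the counts in the controls and 51.8% to 54.2% in OA-AP, with 13 of the 20 called lower and 1 higher. The summed level of the 12 adipocyte genes was 54.7 and 71.3 CPM in the controls and 161 to 292 CPM in OA-AP, with 4 of the 12 tested and 3 called higher, Pnpla2, Plin4 and Lipe. Fabp4, the fourth gene tested, stood at 23.9 to 37.7 CPM in the controls and 36.6 to 70.1 CPM in OA-AP and was not called. From 3 to 7 of the 12 genes were at 0 in a pancreas library, and of the 8 not tested Adipoq had at most 1 count, Plin1 and Lep 3, Cidec, Cidea and Cfd 4, Adrb3 7 and Retn 0. Neutrophil genes summed to 0.944 and 1.89 CPM in the controls and 12.4, 3.26 and 95.0 CPM in OA-AP. Of the 5 neutrophil genes tested 0 were called by edgeR, with 1 at an unadjusted p-value under 0.05, while DESeq2 called 4 higher. Their part in the values of the 10 genes was not tested. Without OA-AP replicate 3, which had the most neutrophil counts, Adh1, Adh5 and Aldh3a2 were called with log2 changes of -1.28, -0.72 and 1.01. Aldh1b1 was called in addition, where 33.9% of all genes were called. The OA-AP libraries left, at 12.4 and 3.26 CPM of neutrophil genes, were still above both controls, so this fit does not test the part of these genes.

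The promoters of the 3 called genes, which changed in the pancreas, are shown with that of Cyp2e1, which like Adh7 was not detected there. The sequences are from RefSeq (GRCm38.p6), run from 250 bases before to 50 after the annotated start, 5′ to 3′ on the gene's strand, and capitals mark matches to the motifs searched. RefSeq held 11 promoters for 9 of the 10 genes among 32851 in all, and Aldh2 had none.
Adh1, chr3:138277335-138277634, plus strand: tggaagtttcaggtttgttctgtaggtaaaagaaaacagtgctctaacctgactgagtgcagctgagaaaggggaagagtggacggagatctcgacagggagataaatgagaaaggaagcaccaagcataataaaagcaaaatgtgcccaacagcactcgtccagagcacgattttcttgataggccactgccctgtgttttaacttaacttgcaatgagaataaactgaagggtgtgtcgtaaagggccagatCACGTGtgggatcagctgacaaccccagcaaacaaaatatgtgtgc
Adh5, chr3:138442843-138443142, plus strand: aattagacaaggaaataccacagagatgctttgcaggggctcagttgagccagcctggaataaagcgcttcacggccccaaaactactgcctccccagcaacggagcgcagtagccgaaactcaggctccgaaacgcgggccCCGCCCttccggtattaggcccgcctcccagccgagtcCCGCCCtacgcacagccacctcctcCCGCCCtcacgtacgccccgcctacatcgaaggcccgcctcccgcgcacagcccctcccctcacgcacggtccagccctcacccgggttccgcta
Aldh3a2, chr11:61267137-61267436, minus strand: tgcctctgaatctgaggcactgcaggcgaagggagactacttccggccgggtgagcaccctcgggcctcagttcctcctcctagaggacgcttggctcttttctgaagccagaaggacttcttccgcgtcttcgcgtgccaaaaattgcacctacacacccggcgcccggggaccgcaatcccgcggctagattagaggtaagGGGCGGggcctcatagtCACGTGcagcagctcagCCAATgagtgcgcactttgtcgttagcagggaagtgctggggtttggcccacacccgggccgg
Cyp2e1, chr7:140763569-140763868, plus strand: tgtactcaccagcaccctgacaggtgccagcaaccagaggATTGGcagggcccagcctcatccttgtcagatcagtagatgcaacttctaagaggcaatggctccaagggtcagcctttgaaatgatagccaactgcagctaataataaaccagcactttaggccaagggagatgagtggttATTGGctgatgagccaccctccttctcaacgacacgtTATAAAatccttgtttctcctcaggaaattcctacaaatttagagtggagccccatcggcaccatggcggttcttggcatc

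The motifs were searched on both strands and did not overlap in the 4 sequences. The Adh1 window held 1 E-box (CACGTG), a motif in 7.15% of all promoters, and it starts inside the gene span of the deposited table. The Adh5 window, the second of its 2, held 3 GC boxes (GGGCGG or its complement), which 35.7% of all promoters hold at least once. The first Adh5 window, not shown, held a TATA box and no GC box and had 47% GC. The Aldh3a2 window held a GC box, an E-box and a CCAAT box, the last present in 37.4% of all promoters. The Cyp2e1 window held a TATA box (TATAAA, 13.6% of all promoters) and 2 CCAAT boxes. In base content the Adh5 and Aldh3a2 windows had 65% and 61.7% GC, and the Adh1 and Cyp2e1 windows 45.3% and 49.7%. A C/EBP motif (TTGCNNAA), a nuclear receptor half-site (AGGTCA) and a D-box (TTATGNAA) were also searched, and none was in these 4 windows. The Adh7 window, not shown, held a TATA box, 2 CCAAT boxes and a C/EBP motif, the last in 10.8% of all promoters, and had 39.3% GC. Such matches describe letters in these windows only.

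In adipose tissue none of the 10 genes met both thresholds between OA-AP and control mice, although Aldh2 passed the adjusted p-value alone and Cat, Aldh2 and Acss2 were lower in every OA-AP library. Of the 10 genes 9 were tested and 0 were called by edgeR's quasi-likelihood test, against 25.1% of the 15839 genes tested, 12.1% higher and 13% lower. At an unadjusted p-value under 0.05 edgeR's test gave 4 of the 9 genes, Cyp2e1, Cat, Aldh2 and Acss2, against 47.4% of all genes tested. DESeq2 called 2 of the 9, Cyp2e1 and Acss2, against 25.8% of all genes, so neither count was above its background. The groups did not overlap for 3 of the 9 genes, against 52.4% of all genes tested.

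Cyp2e1 lies on chromosome 7 from 140763739 to 140774987 (plus strand). Its level was 6603, 6330 and 9923 CPM in the controls and 6361, 3067 and 2683 CPM in OA-AP. OA-AP replicate 1 lay within the range of the controls, and the other two OA-AP libraries lay below it. The log2 change was -0.92 (SE 0.37, adjusted p = 0.0892, edgeR's quasi-likelihood test), with means of 7619 ± 2001 CPM in the controls and 4037 ± 2022 CPM in OA-AP (± SD, n = 3 each). Without OA-AP replicate 1 the log2 change was -1.40 and was called (adjusted p = 0.0105, edgeR), and DESeq2 called it with all libraries at -0.91 (adjusted p = 0.0181). Over all alternatives the log2 change of Cyp2e1 ran from -1.40 to -0.67 and its adjusted p from 0.0105 to 0.251.

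The summed levels of mesothelial and of adipocyte genes were also lowest in the libraries with the least Cyp2e1. The summed mesothelial level over 5 genes was 393, 243 and 658 CPM in the controls and 435, 136 and 161 CPM in OA-AP, so OA-AP replicates 2 and 3 were lowest, and 0 of 5 were called by edgeR or DESeq2, with 2 at an unadjusted p-value under 0.05 in edgeR. The 12 adipocyte genes summed to 47667, 47325 and 50250 CPM in the controls and 50601, 39403 and 43601 CPM in OA-AP, where replicates 2 and 3 were again lowest. These are sums, and single genes differed. Fabp4, Pnpla2 and Lep were higher in every OA-AP library than in any control. Plin1, Adrb3, Cfd and Cidea were lower in every OA-AP library than in any control. Msln, a mesothelial gene, was lowest in a control library at 36.4 CPM. The part of these genes in the Cyp2e1 values was not tested. Hepatocyte genes, whose cells carry high Cyp2e1, summed over 10 genes to at most 27.1 CPM in the controls and 22.1 CPM in OA-AP. Alb, the highest of them in adipose tissue, stood at 12.0 to 18.8 CPM over all 6 libraries.

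Cat, on chromosome 2 from 103453849 to 103485160 (minus strand), was at 1058, 1128 and 1378 CPM in the controls and 987, 862 and 828 CPM in OA-AP. All OA-AP libraries were below all controls, with a log2 change of -0.41 (SE 0.15, adjusted p = 0.0691, edgeR). Aldh2 was at 976, 856 and 1051 CPM in the controls and 792, 642 and 659 CPM in OA-AP. The groups did not overlap, and the log2 change was -0.46 (SE 0.14, adjusted p = 0.0409, edgeR), a 1.38-fold difference that is under the fold threshold.

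Acss2, which provides acetyl-CoA for lipid synthesis in adipose tissue, was at 91.0, 48.7 and 59.2 CPM in the controls and 46.8, 42.5 and 31.3 CPM in OA-AP. The OA-AP libraries were all lower, but OA-AP replicate 1 and control replicate 2 nearly met. The log2 change was -0.72 (SE 0.26, adjusted p = 0.0645, edgeR), and without control replicate 1, the highest library, it was -0.42 (adjusted p = 0.159). Without control replicate 2, which carried the acinar counts, it was -0.90 and called (adjusted p = 0.0362), and DESeq2 called it with all libraries at -0.72 (adjusted p = 0.0200).

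**Figure D4:**
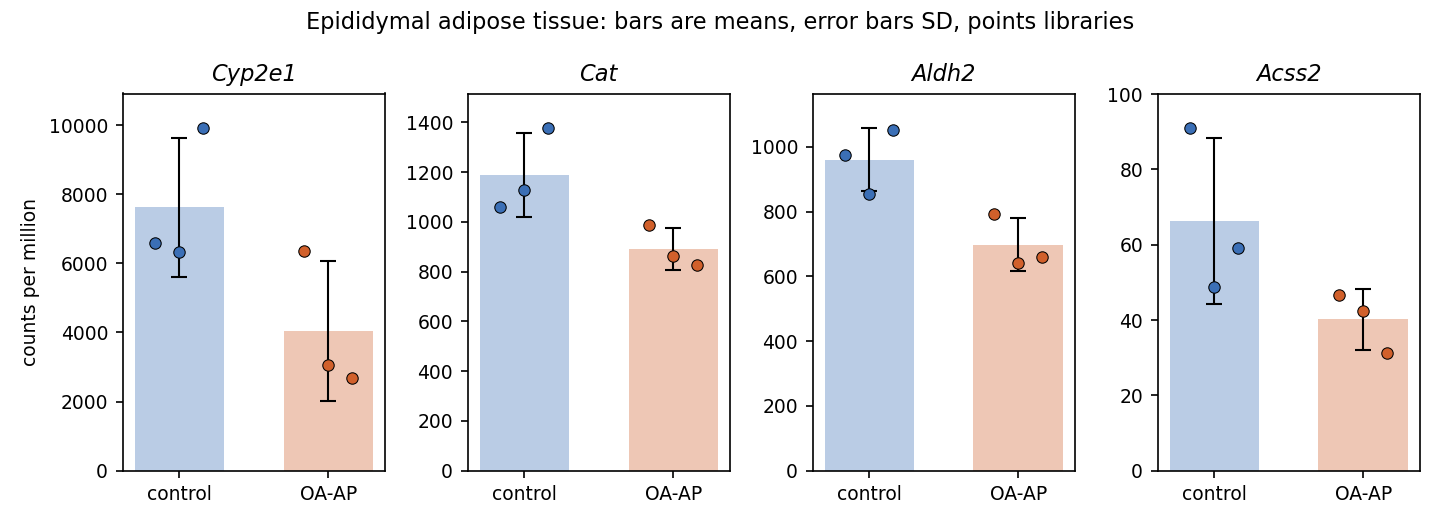
CPM of Cyp2e1, Cat, Aldh2 and Acss2 in epididymal adipose tissue, with bars for group means, error bars for SD and points for the 3 control and 3 OA-AP libraries. The OA-AP points of Cat, Aldh2 and Acss2 lie below all control points, and 1 of the 3 OA-AP points of Cyp2e1 lies among the controls.

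The alcohol dehydrogenases had no call in adipose tissue. Adh1 was at 157, 127 and 138 CPM in the controls and 88.2, 144 and 101 CPM in OA-AP. The groups overlapped through OA-AP replicate 2, and the log2 change was -0.34 (SE 0.19, adjusted p = 0.198, edgeR). Adh5 was at 104, 101 and 109 CPM in the controls and 112, 105 and 97.6 CPM in OA-AP, with a log2 change of -0.0021 and an SE of 0.09 (adjusted p = 0.987, edgeR). Its spread was the smallest in this tissue, with a coefficient of variation of 3.89% in the controls.

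Of the other aldehyde dehydrogenases, Aldh1a1 was at 209, 239 and 213 CPM in the controls and 160, 383 and 247 CPM in OA-AP. OA-AP replicate 1 was the lowest and replicate 2 the highest of all 6, with a log2 change of 0.26 (SE 0.29, adjusted p = 0.519, edgeR) that turned to -0.11 without replicate 2. Aldh3a2 was at 50.5, 54.5 and 49.5 CPM in the controls and 52.1, 61.4 and 54.4 CPM in OA-AP. The groups overlapped, and its log2 change was 0.12 (SE 0.09, adjusted p = 0.346, edgeR), or -0.03 with library totals. Aldh1b1 had 15 to 49 counts in the controls and 13 to 36 in OA-AP, with a log2 change of -0.09 (SE 0.51, adjusted p = 0.904, edgeR).

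Scaling by library totals moved the median of all adipose genes by -0.15 on the log2 scale and the share of higher calls from 48.1% to 32.1%. On that scale Aldh2 at -0.62 and Acss2 at -0.87 were called, against 26.8% of all genes (adjusted p = 0.0121 and 0.0333, edgeR), while Cyp2e1 at -1.08 was not (adjusted p = 0.0510).

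Marker genes also moved between the adipose groups. Fibroblast genes summed to 3056 to 3813 CPM in the controls and 1859 to 2392 CPM in OA-AP, with 4 of 7 called lower. Neutrophil genes summed to 6.72 to 12.4 CPM in the controls and 144 to 178 CPM in OA-AP, with 5 of 5 tested called higher. Of the 12 adipocyte genes 1 was called higher and 3 lower. Lymphocyte genes summed to 9.71, 39.8 and 12.2 CPM in the controls and at most 4.49 CPM in OA-AP. Their part in the values of the 10 genes was not tested.

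Whether the change differed between the tissues was tested as a tissue by condition term over all 11 libraries. Of the 9 genes tested, 2 were called, against 20.6% of the 17046 genes tested, 10.4% higher and 10.2% lower. For Adh5 the adipose log2 change exceeded the pancreas log2 change by 0.76 (SE 0.17, adjusted p = 0.00716, edgeR's quasi-likelihood test), but this difference was -0.09 with library totals. For Aldh3a2 the adipose log2 change was lower by -0.89 (SE 0.16, adjusted p = 0.00229, edgeR), and with library totals by -1.74. Library totals moved the median of all genes in this term by -0.84 on the log2 scale and the share of higher calls from 50.6% to 5.73%. For Adh1 the difference was 0.78 (SE 0.29, adjusted p = 0.0843, edgeR), and for Aldh2 it was -0.46 (SE 0.19, adjusted p = 0.104, edgeR). Neither was called. The term for Cyp2e1 is not given, because the gene was at or under the floor in the pancreas.

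The other genes of the pathway were described from 8 lists written by hand from gene symbols, and their calls are read against the shares of all genes called. These are 29.8% in the pancreas, 16.2% higher and 13.5% lower, and 25.1% in adipose tissue, 12.1% higher and 13% lower. Of the 4 other alcohol dehydrogenases only Adhfe1, which oxidizes hydroxy acids, had enough counts. It fell by 1.00 on the log2 scale in the pancreas, with means of 16.2 ± 1.29 CPM in the controls and 8.07 ± 1.75 CPM in OA-AP (± SD, n = 2 and 3), and in adipose tissue its log2 change was -0.34 and not called. With library totals the pancreas value was -0.31 and not called.

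Of the 17 other aldehyde dehydrogenases 13 were tested in the pancreas, and 8 were called lower and 2 higher, 76.9% of those tested, with a median log2 change of -0.93 against 0.039 for all genes. Aldh1l2, the mitochondrial formyltetrahydrofolate dehydrogenase, fell from 90.6 to 4.21 CPM, and Aldh18a1, an enzyme of proline synthesis, fell from 54.5 to 11.7 CPM. Aldh1a7 fell from 24.7 to 7.42 CPM and Aldh6a1, of valine breakdown, from 84.0 to 38.6 CPM. With library totals 4 of the 13 were called lower, Aldh1l2, Aldh18a1, Aldh1a7 and Aldh4a1, and 2 higher. In adipose tissue 3 of 15 were called, or 20%, all higher, and Aldh18a1 was among them with 11.9 CPM in the controls and 28.3 CPM in OA-AP. The others were Aldh1a3 with 36.6 and 67.7 CPM, and Aldh1l1, the cytosolic folate enzyme, with 163 and 405 CPM. With library totals 3 were also called lower.

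Of the microsomal P450s and electron donors 5 of 7 were tested in the pancreas. Por, the reductase that passes electrons to Cyp2e1 and every other microsomal P450, rose by 6.16 on the log2 scale, with means of 9.01 ± 1.22 CPM in the controls and 643 ± 118 CPM in OA-AP (± SD, n = 2 and 3, SE 0.25, adjusted p = 1.73e-05, edgeR). Cyb5r3, Cyb5b, Cyb5a and Cyp3a13 fell, with log2 changes of -1.12, -1.06, -1.50 and -0.96, and of these Cyb5a alone was still called with library totals. In adipose tissue 0 of 4 were called by edgeR, and the smallest adjusted p was 0.0798 for Cyb5a, whose unadjusted p of 0.0347 was the one under 0.05. DESeq2 also called 0 of these 4.

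**Figure D5:**
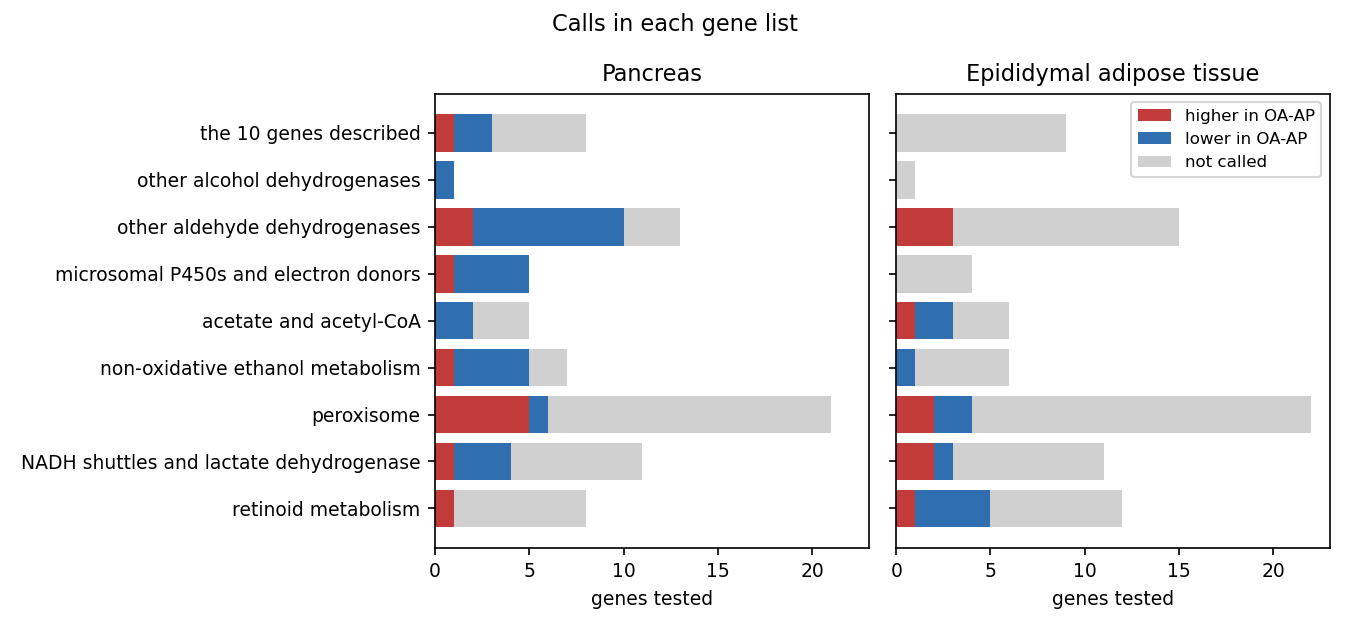
Number of tested genes called higher or lower in OA-AP, or not called, in the 10 genes described and in 8 lists of related genes, for the pancreas and adipose tissue. In the pancreas 8 of 13 other aldehyde dehydrogenases were lower, and in adipose tissue 3 of 15 were higher.

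Of 7 genes for acetate and acetyl-CoA, 2 of 5 tested fell in the pancreas, the mitochondrial synthetase Acss1 from 18.9 to 3.95 CPM and the monocarboxylate carrier Slc16a7 from 21.8 to 8.16 CPM. In adipose tissue Slc16a7 fell as well, from 39.3 to 13.2 CPM, with Acss3 from 105 to 67.9 CPM, and the carrier Slc16a1 rose from 67.3 to 119 CPM. Among the 10 genes of non-oxidative ethanol metabolism 4 of 7 tested fell in the pancreas and 1 rose. Cel and Pnlip, acinar lipases of which Cel can form fatty acid ethyl esters, fell by 1.62 on the log2 scale each, and Pld1, a phospholipase D, rose from 2.09 to 7.80 CPM. Both lipases are also in the acinar marker list. Lpl fell in both tissues, by 1.73 on the log2 scale in the pancreas and by 0.95 in adipose tissue.

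Of 22 genes in the peroxisome list 21 were tested in the pancreas, with 5 called higher and 1 lower. This was 28.6% of those tested and close to the share of all genes. Hsd17b4, an enzyme of peroxisomal fatty acid oxidation, rose from 11.3 to 27.9 CPM. Pex7, an import receptor, fell from 11.2 to 3.21 CPM. With library totals 12 were called higher and 1 lower, where 49.3% of all genes were called. In adipose tissue 2 of the 22 were called higher and 2 lower, or 18.2%. Xdh, which encodes xanthine dehydrogenase, was among the higher calls in both tissues. It rose by 1.52 on the log2 scale in adipose tissue, where Pex3 fell.

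Ethanol oxidation loads cells with NADH, and of 11 genes for NADH shuttles and lactate dehydrogenase 1 was called higher and 3 lower in the pancreas, 36.4% of the list. Ldha rose from 21.6 to 56.9 CPM, while Mdh1 fell from 65.5 to 27.3 CPM and Ldhb and Got1 fell by 1.29 and 0.76 on the log2 scale. With library totals none of the 3 was called lower and 5 genes were called higher. In adipose tissue Ldha rose from 563 to 1096 CPM and Got1 from 7.77 to 13.6 CPM, and Gpd2 fell from 84.1 to 46.8 CPM.

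Retinol and ethanol share dehydrogenases, and of 16 retinoid genes 8 were tested in the pancreas with 1 called, Rdh11, higher by 0.70 on the log2 scale. In adipose tissue 12 were tested, with 4 called lower and 1 higher, 41.7% of those tested. Cyp26b1, which breaks down retinoic acid, fell from 6.29 to 2.20 CPM, Rarb from 3.60 to 1.45 CPM and Dhrs3 from 160 to 62.4 CPM. Rdh10, which makes retinaldehyde from retinol, rose from 17.5 to 44.1 CPM. These lists were written with earlier results of these data known, and their counts describe them only.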

How the data were processed

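RNA from 5 pancreas and 6 adipose libraries was analysed. The authors trimmed reads with Trim Galore (0.6.6), checked them with fastp (0.20.1), aligned them to GRCm38 with STAR and counted them with featureCounts (2.0.1), and the deposited values are unnormalized whole-number counts for each gene. The strand setting and annotation release are not given in the sources used here. Coordinates and gene lengths were those of the deposited pancreas table, and exon overlaps were read from GENCODE M21.

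Low-count genes were dropped with filterByExpr. Within each tissue, TMM factors and the robust quasi-likelihood test of edgeR (4.0.16, R 4.3.3) were used. All 11 libraries entered the tissue comparisons. A gene was called at a fold change of at least 1.5 with a p-value under 0.05 after Benjamini-Hochberg adjustment over all genes tested. SE is the size of the log2 change divided by the square root of F. Floors cover counting error only.

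All 10 genes were named in each comparison, and from each list up to 4 called genes with the smallest p per tissue, with any further genes chosen after their values were seen, and some genes this rule names are not reported here. The genes and lists were chosen with earlier results of these data known. By the rule on likeness, the 3 genes with the highest correlation were found for the most abundant gene of each tissue. Alternatives were DESeq2 (1.42.0), its size factors, library totals, counts without acinar genes, other filters and fold thresholds, each library left out, and a replicate block. The ratio to Aldh2 was added after the data were seen. Tests were tested on simulated data. Replicates of a group differed by more than counting noise.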

Additional observations from a re-analysis of the deposited data

Results flagged for a closer look

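Adh5 and Aldh3a2 changed differently in the 2 tissues by the tissue by condition term of edgeR's quasi-likelihood test. For Adh5 the adipose log2 change minus the pancreas log2 change was 0.76 (adjusted p = 0.00716), and it stayed between 0.67 and 0.82 when each of the 11 libraries was left out, but was -0.09 with libraries scaled by their totals. For Aldh3a2 it was -0.89 (adjusted p = 0.00229), between -1.02 and -0.86 when each library was left out.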

How the results depend on the processing

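The number of genes called in the pancreas was 3 and ranged from 1 to 5 when a library was left out, with 1 without control replicate 1 and 5 without OA-AP replicate 2. In adipose tissue 0 were called, against 25.1% of all genes tested, and 0 to 1 when a library was left out, against 17.8% to 27.6%. There was 1 call with no fold threshold, 2 with DESeq2 and 2 with library totals, against 36.8%, 25.8% and 26.8% of all genes. Of the tissue differences 2 were called, against 20.6% of all genes tested, and 0 at a fold change of 2, against 13.9%. Without adipose OA-AP replicate 1 there were 4, against 18.2%. Between control tissues 9 were called, against 55.5% of all genes tested, and 7 to 9 under the alternatives, against 34% to 90.2%.

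The sign of a log2 change turned mostly where it was close to 0. In the pancreas Aldh2 turned to 0.701 with library totals, 0.000804 without acinar genes and 0.0625 with no filter, and ranged from -0.0783 to 0.0331 when a library was left out, and Cat ranged from -0.00688 to 0.303. Acss2 turned to 0.176 with library totals. In adipose tissue Adh5 turned to 0.00221 with DESeq2 and 0.00236 with its size factors, and ranged from -0.0431 to 0.0495 when a library was left out, Aldh1b1 from -0.722 to 0.305 and Aldh1a1 from -0.109 to 0.521. Aldh3a2 turned to -0.0289 with library totals. The tissue differences of Adh1 and Adh5 turned to -0.0508 and -0.0906 with library totals, and that of Acss2 ranged from -0.603 to 0.156 when a library was left out. Between control tissues Aldh1b1 turned to 0.270 and Aldh3a2 to 1.51 with library totals.

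Deviations of same-numbered libraries had correlations from -0.16 to 0.09. With so few libraries per group these cannot show whether same-numbered samples came from one mouse, and the labels do not say. With the replicate block 3 genes were called in the pancreas, 1 in adipose tissue (Acss2, -0.69, adjusted p = 0.0380 by edgeR) and 2 tissue differences, and no other call changed. Of all genes tested 31.8%, 22% and 12.6% were called with the block in these comparisons. With 2 pancreas controls, leaving out either leaves 1, which is assumed to vary like the other group. The cause of these changes was not tested.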

Other observations

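Over all 11 libraries the genes most like Aldh2, the most abundant of the 10 per kilobase in control pancreas, were Unc93a2, Nat8l and Cnga4, with Pearson r of log2 CPM of 0.998, 0.997 and 0.996 among 17046 genes. Those most like Cyp2e1, the most abundant in control adipose tissue, were Slc7a10, Hoxc8 and Hsd3b7, with r of 0.999, 0.997 and 0.997. The 11 libraries come from 2 tissues that differ widely in the levels of these genes, and the values describe these libraries only.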
